A study of Homo sapiens with 64 samples.

Results

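Indacaterol was added to cells in which phosphodiesterase 4 was inhibited at the same time, and gene expression was compared 1 h later with that in cells given the inhibitor without indacaterol. The comparison comprised 8 of the 64 arrays of the series, 4 labelled as treated with both drugs for 1 h and 4 labelled as treated with GSK 256066 alone for 1 h, and no vehicle array entered the difference. The arrays were chosen from their labels, not from measured values. BEAS-2B, an immortalised human airway epithelial line, was grown in serum-free keratinocyte medium, first with epidermal growth factor and pituitary extract and then for 24 h in the plain medium. Confluent cells were treated for 1, 2, 6 or 18 h with vehicle, 10 nM indacaterol, 10 nM GSK 256066 (called GSK here) or both drugs at 10 nM each, with 4 replicates in each of 16 groups. Both groups compared here therefore had GSK for 1 h, and they differed in indacaterol. A single line was used. Whether the 4 replicates of a group came from different cultures is not stated, so p-values reflect only the variation among replicate arrays of the series, which may be technical.

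Indacaterol is a long-acting agonist of the beta2-adrenoceptor, a receptor that couples through the G protein Gs to adenylyl cyclase, the enzyme that makes cyclic AMP (cAMP). cAMP activates protein kinase A, which phosphorylates the transcription factor CREB, and CREB bound at cAMP response elements switches on a set of early genes. Phosphodiesterase 4 (PDE4) breaks cAMP down, and GSK blocks it, so the comparison isolates what the receptor agonist added where this route of cAMP breakdown was blocked as well. In airway epithelium cAMP is known for effects on cytokine output and barrier function, and the same agonists relax the neighbouring smooth muscle.

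Signal is given as deposited, one linear value per probe set (a group of short probes for one transcript), and each gene is represented by its brightest probe set. The median signal of the 8 arrays ran from 113.8 to 127.4. The replicate 3 arrays of both groups stood apart: their highest signal was 265800 to 289100, against 17150 to 18370 on the other 6 arrays, and within these 8 arrays replicate 3 exceeded the others by 4-fold or more for 130 genes and fell short of them by as much for 8. None of these genes was among the 28 called in the comparison. Of 6 simple epithelial markers 4 exceeded 100 on all 8 arrays, with the keratins KRT8 (4314 to 6585) and KRT18 (7673 to 9853) brightest, while KRT19 and EPCAM were dim on some arrays (lowest 0.0061 and 43.37). Of 4 measured basal epithelial markers 2 exceeded 100 on all 8 arrays, ITGA6 (1745 to 2736) and KRT5. KRT5 ran from 139.9 to 258.1 outside replicate 3 and reached 31430 within it. KRT14, a basal keratin, was at most 35.26 outside replicate 3 and reached 289100 within it. The summed signal of 8 leukocyte markers was 1082 to 1232 with GSK and 1128 to 1295 with both drugs. Of these 8 markers 2 exceeded 100 on all arrays, CD4 (349.8 to 516.6) and LYZ (221 to 482.6), while PTPRC was at 19.1 to 39.14. The 9 fibroblast markers summed to 8032 to 13690 with GSK and 9549 to 14770 with both drugs, and 5 of them exceeded 100 on all arrays, among them COL1A1 (5781 to 10240), PDGFRB (797.5 to 2507) and THY1 (739.8 to 1652), while FAP (14.58 to 43.23) and LUM (67.69 to 88.36) did not. Of 6 ciliated cell markers 2 did so, CAPS and DNAI1, with FOXJ1 at 7.982 to 26.03, and of 6 secretory cell markers MUC5AC and BPIFA1 did, with SCGB1A1 at 31.53 to 76.3. No marker of any of these lists was called in the comparison.

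After 1 h, indacaterol on top of GSK raised 27 genes and lowered 1, SERTAD3. The greatest rises were those of NR4A3, a nuclear receptor, IL6, a cytokine, and PRDM1, a transcriptional repressor. By limma, 28 of 19775 genes (0.142%) passed an adjusted p of 0.05, 27 higher (0.137%) and 1 lower (0.00506%), while 487 had an unadjusted p under 0.05. Changes are differences in mean log2(signal + 16) with their SE at n = 4 per group, a scale that understates the change of dim genes, and the median over all genes was -0.025. Of the 27 rises, 13 were at least 2-fold on that scale, and SERTAD3 fell by less than 2-fold. The 4 values with both drugs all lay above the 4 with GSK for 25 of the 27, and all below for SERTAD3; BHLHE40 and MYC overlapped. Over all genes 0.541% lay all above and 0.753% all below. Without replicate 3 there were 25 calls, all higher, and 20 of the 28 remained. The count depended on the arrays used: it was 11 without replicate 1, 5 without replicate 2 and 10 without replicate 4. With 1 array left out it was 6 without replicate 3 of both drugs, 17 without its replicate 4 and 18 without its replicate 1, and 8 without GSK replicate 4 and 9 without GSK replicate 2. In the fits tried, PRDM1, SGK1, RGS2, TRIB1 and EDN1 were called under all 23 alternatives. One alternative, with the replicate number as a block, called 95 genes (82 higher, 13 lower), all 28 among them. Under the rule given below the numbers were not taken to pair these arrays, so the main counts carry no block.

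**Figure D1:**
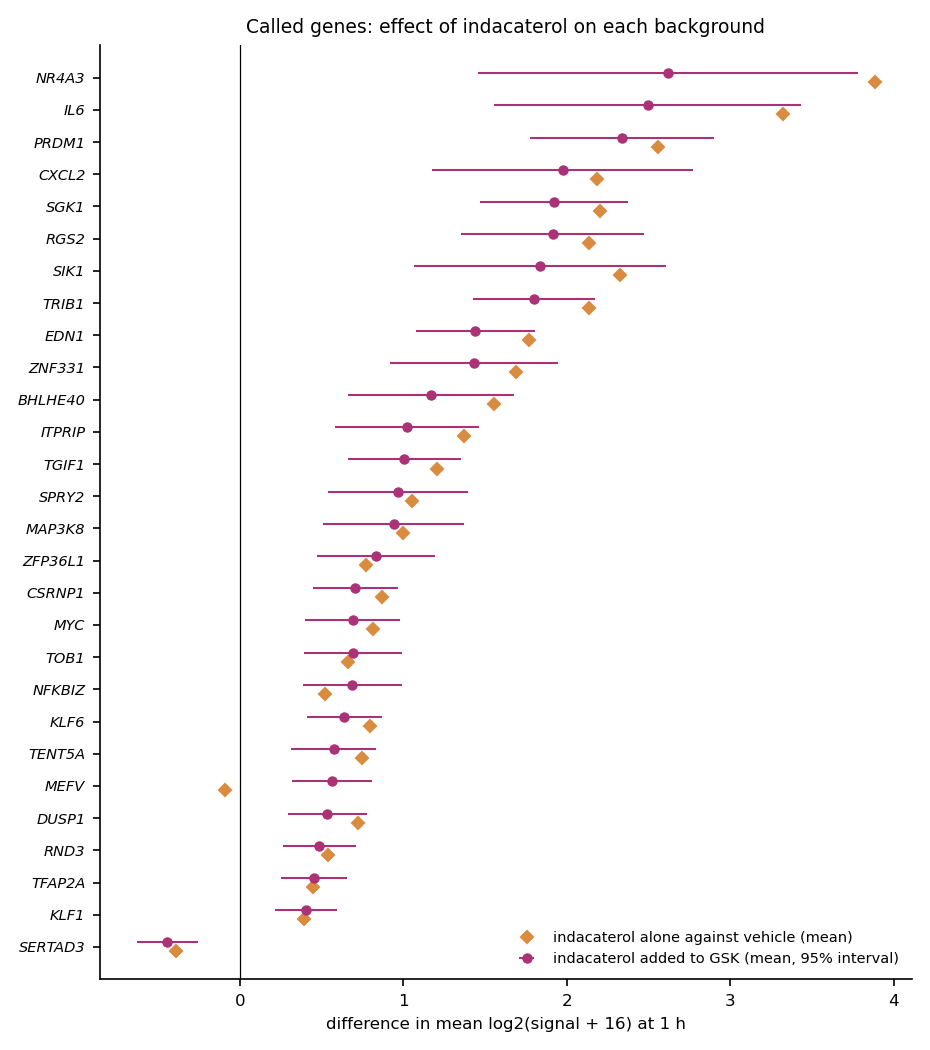
The 28 genes called after 1 h, by the difference in mean log2(signal + 16) between both drugs and GSK (circles, with 95% intervals, 4 arrays per group) and between indacaterol and vehicle (diamonds). NR4A3, IL6 and PRDM1 lie farthest to the right, SERTAD3 alone lies below 0 on both backgrounds, and MEFV is the gene that rose on GSK and whose diamond lies at -0.09.

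NR4A3, an orphan nuclear receptor of the immediate early class and a CREB target, had the greatest rise. Its signal was 166.3, 57.13, 266.3 and 31.07 in GSK replicates 1 to 4 and 1605, 389, 1303 and 276.1 in the same-numbered arrays with both drugs. Replicates 1 and 3 were high in both groups, and the lowest value with both drugs lay just above the highest with GSK. The rise was 2.62 ± 0.58 (adjusted p = 0.0327), and without replicate 3 it was 2.75 with an adjusted p of 0.175, past the threshold no longer. Nor was NR4A3 called without replicate 1 (adjusted p = 0.167), 2 (0.422) or 4 (0.287). Between same-numbered arrays its difference was 3.152, 2.469, 2.224 and 2.634, and with the replicate block limma gave an adjusted p of 4.27e-06. Another NR4A3 probe set rose by 2.37 and the dimmest of its 3 gave -0.0025. Its relatives were measured less tightly: NR4A2 had a difference of 2.58 (95% interval 1.09 to 4.08, adjusted p = 0.426), with GSK values from 110.4 to 1421 that overlapped the 832.1 to 10900 with both drugs. NR4A1 had a difference of 0.89 (adjusted p = 0.54).

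SIK1, a kinase that keeps CREB coactivators out of the nucleus, read 1866, 782.2, 2320 and 710 with GSK and 4651, 3509, 6777 and 3687 with both drugs. Here too replicates 1 and 3 were the high pair with GSK, and the groups did not overlap. SIK1 rose by 1.84 ± 0.38 (adjusted p = 0.0223). It was also called without replicate 3 (1.94), but not without replicate 1 (adjusted p = 0.179), 2 (0.515) or 4 (0.287). Between same-numbered arrays the SIK1 difference was 1.31, 2.143, 1.54 and 2.351, and with the replicate block limma gave an adjusted p of 1.72e-09. A near-identical gene copy exists (SIK1B in RefSeq), so the signal cannot be assigned between them. RGS2, which speeds the shut-off of G proteins, read 2485, 1512, 1652 and 1581 with GSK and 9669, 5730, 6748 and 5421 with both drugs. Replicate 1 was highest in both groups, and the RGS2 groups were well apart, a rise of 1.91 ± 0.28 (adjusted p = 3.79e-05) that was called with any 1 replicate number left out.

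DUSP1 encodes a phosphatase that inactivates MAP kinases, and its transcript was already abundant with GSK. Its signal was 10920, 8952, 10840 and 8208 with GSK and 14110, 13760, 14750 and 13450 with both drugs, near the top of the range of the arrays outside replicate 3. The DUSP1 groups did not overlap, and the rise was 0.54 ± 0.12 (adjusted p = 0.035), called without replicate 3 but not without replicate 1 (adjusted p = 0.179), 2 (0.792) or 4 (1). A less bright DUSP1 probe set, with group means of 2283 and 5943, rose by 1.41 (adjusted p = 1.09e-05 over all probe sets). The dimmest of the 3, with means of 212.3 and 240.4, gave 0.17 and was not called, so the probe sets gave different sizes of the same direction.

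**Figure D2:**
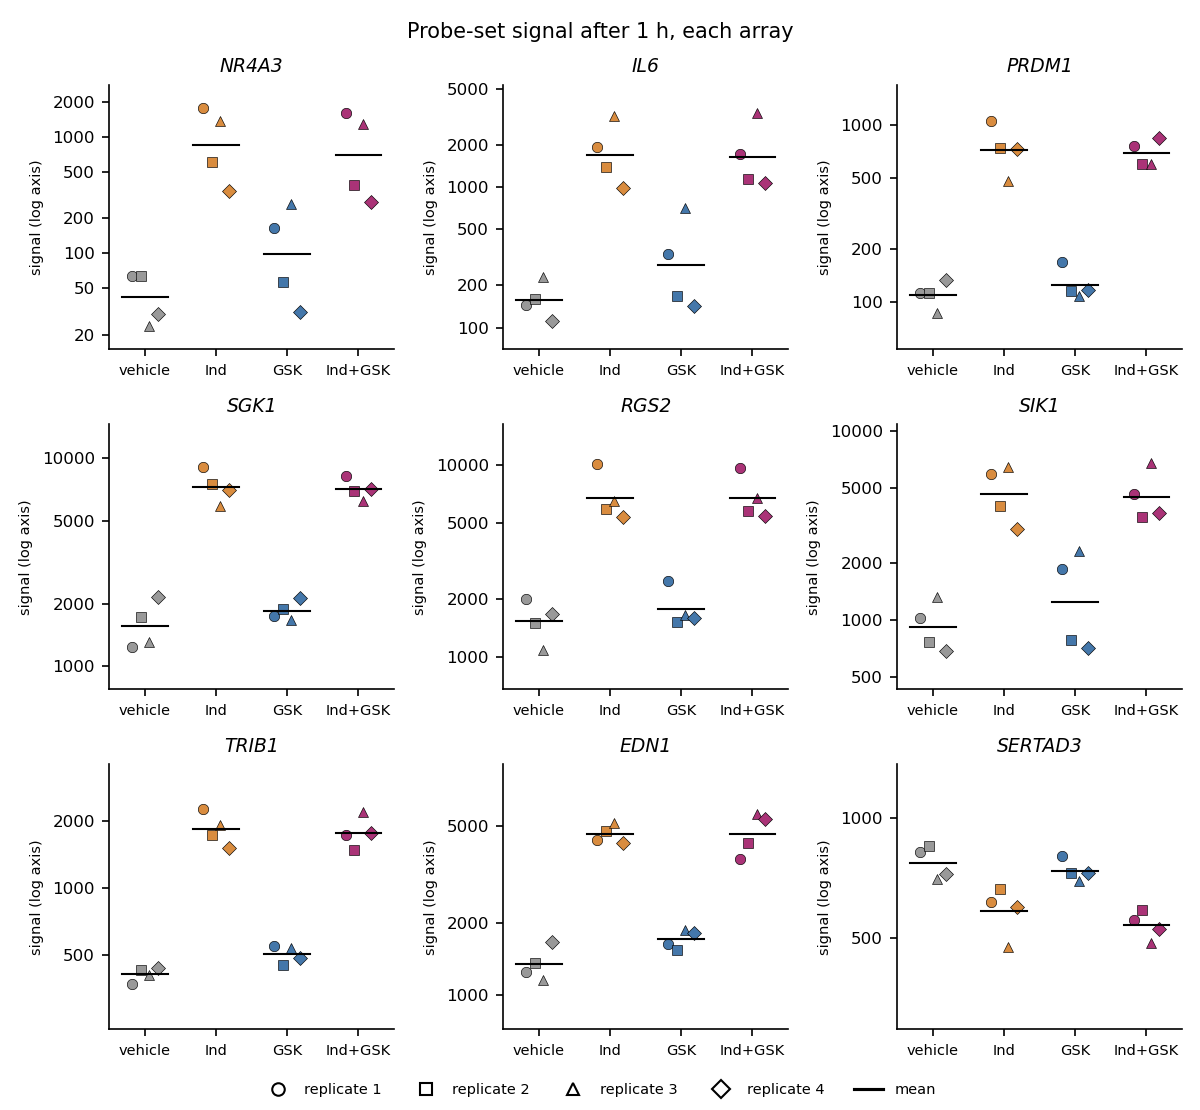
Probe-set signal on each array after 1 h (log axis) for 9 called genes in the 4 treatment groups; the marker shape gives the replicate number and the bar the mean on the log2(signal + 16) scale. The arrays with both drugs sit above all GSK arrays in 8 panels and below them for SERTAD3, and the spread between replicates is much wider for NR4A3 than for TRIB1 or EDN1.

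Promoter sequences of rising genes are shown because CREB binds cAMP response elements, whose full form is TGACGTCA and whose core is TGACG, or CGTCA on the other strand; each full form contains the core once on each strand. The windows searched, on both strands, ran from 250 bases before to 50 after each RefSeq start (GRCh38.p14), and 25 of the 27 genes that rose had such a window. At least 1 core stood in 13 of the 25 (52%), against 34.7% of the 15382 tested genes with a window. The full form stood in 2 of the 25 (8%), DUSP1 and ZFP36L1, against 3.1%. A gene was counted if any of its windows held the letters, so genes with more starts had more chances. By window, the core stood in 36.5% of the 52 windows of these genes, against 24.6% of all 35116 windows. The full form stood in 3.85% of the 52, against 1.85%. These shares are descriptions of letters, with no test, and a match is not a measured binding site. The stretches below lie upstream of the start, are written 5′ to 3′ on the strand of the gene, and carry the cores and full forms in capitals. NR4A3 (chr9:99821746-99821884, plus strand, bases 139 to 1 before the start) and SIK1 (chr21:43427223-43427378, minus strand, 247 to 92 before) hold 4 and 3 cores. DUSP1 (chr5:172771272-172771397, minus strand, 202 to 77 before) and ZFP36L1 (chr14:68793431-68793498, minus strand, 82 to 15 before) hold the full form. RGS2 (chr1:192808828-192808892, plus strand, 211 to 147 before) holds 1 core and IL6 (chr7:22726955-22727072, plus strand, 245 to 128 before) 2.
NR4A3: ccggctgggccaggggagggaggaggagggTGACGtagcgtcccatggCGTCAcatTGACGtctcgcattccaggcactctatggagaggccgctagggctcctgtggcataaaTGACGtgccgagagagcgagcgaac
SIK1: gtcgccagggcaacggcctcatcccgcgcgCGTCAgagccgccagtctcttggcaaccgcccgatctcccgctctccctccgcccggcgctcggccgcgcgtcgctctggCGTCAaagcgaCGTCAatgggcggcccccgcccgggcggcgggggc
DUSP1: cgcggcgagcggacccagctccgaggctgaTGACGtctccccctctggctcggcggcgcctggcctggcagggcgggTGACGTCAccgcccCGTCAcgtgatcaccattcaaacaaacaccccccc
RGS2: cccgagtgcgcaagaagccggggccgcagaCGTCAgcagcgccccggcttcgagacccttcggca
ZFP36L1: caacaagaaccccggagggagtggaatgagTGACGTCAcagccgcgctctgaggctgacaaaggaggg
IL6: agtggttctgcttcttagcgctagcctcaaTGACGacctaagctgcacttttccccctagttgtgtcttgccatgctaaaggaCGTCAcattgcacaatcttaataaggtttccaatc

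Of 21 measured CREB targets, 4 (19%) rose (NR4A3, SIK1, DUSP1 and RGS2) and none fell, against 0.137% higher and 0.00506% lower of all genes. These shares of all genes are also the base for the list counts that follow. The median difference was 0.71, against -0.025 over all genes. Without replicate 3 the count was again 4, with LINC00473 in place of NR4A3, and the median was 0.57. The replicate block, not used for the main counts, gave 11 CREB targets higher and 1 lower. LINC00473, a cAMP-induced long non-coding RNA, read 126.5 to 301.1 with GSK and 320.4 to 669.2 with both drugs, with no overlap. Its difference of 1.38 had an adjusted p of 0.0737 with all arrays. CREM, a CREB family member whose short forms repress cAMP targets, differed by 0.04 (adjusted p = 1), and BDNF, a neurotrophin, by 0.87 (adjusted p = 1). The cAMP pathway itself showed 1 called gene of 57 measured, SIK1, and a median of 0.015. PDE4D had a difference of 0.77 (95% interval -0.11 to 1.66), PDE4B 0.40 (-0.05 to 0.85) and PDE4A -0.04 (-0.23 to 0.16), each with an adjusted p of 1. The kinase relatives SIK2 (-0.00049) and SIK3 (-0.04) and the Gs subunit gene GNAS (-0.03) also lay near 0. The beta2-adrenoceptor gene was not analysed here.

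**Figure D3:**
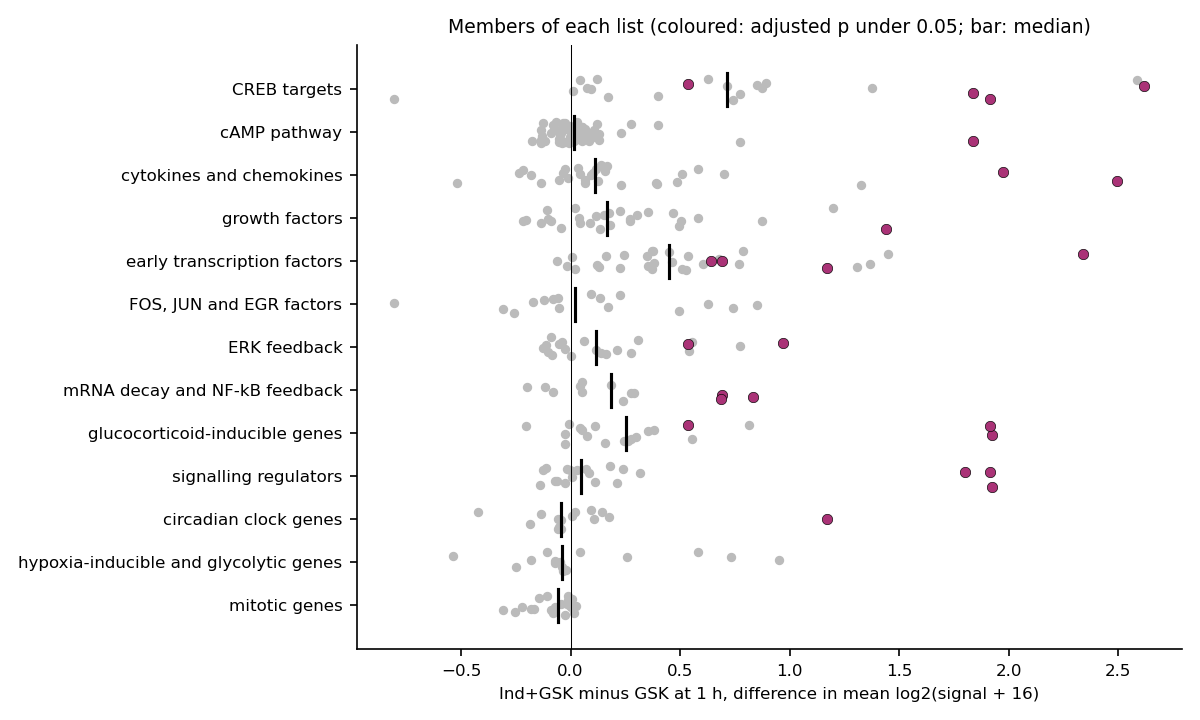
Difference between both drugs and GSK after 1 h for each measured member of 13 gene lists (points), with called genes coloured and a bar at the list median. The CREB targets and the early transcription factors have medians of 0.71 and 0.45, while the cAMP pathway and the mitotic genes gather near 0.

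Among secreted factors, IL6 and CXCL2 were the 2 of 30 measured cytokines and chemokines that rose, and the median of the list was 0.11. IL6, a cytokine with many actions in inflammation and repair, read 335.6, 166.5, 706 and 142.1 with GSK and 1728, 1141, 3357 and 1068 with both drugs. Replicate 3 was highest in both groups, and all values with both drugs lay above those with GSK. The rise was 2.49 ± 0.47 (adjusted p = 0.00458). It was called without replicate 3 (2.58) or 4, but not without replicate 1 (adjusted p = 0.0842) or 2 (0.278). CXCL2, a neutrophil-attracting chemokine, read 142.3, 99.68, 286.2 and 76.36 with GSK and 593.2, 417.9, 1160 and 375.2 with both drugs. It showed the same order of replicates as IL6 and rose by 1.97 ± 0.40 (adjusted p = 0.0153), and its call was likewise lost without replicate 1 (0.275) or 2 (0.353). Between same-numbered arrays the difference was 1.945, 1.907, 1.96 and 2.083 for CXCL2 and 2.31, 2.665, 2.224 and 2.777 for IL6. With the replicate block limma gave an adjusted p of 2.44e-08 for CXCL2 and 6.86e-06 for IL6. The CXCL2 probe set used is of a kind that can share probes with related sequences, and 2 dimmer CXCL2 probe sets gave 0.22 and 0.047. CCL20, another chemokine, stayed dim, at 15.73 to 50.32 with GSK and 39.17 to 222 with both drugs, and its difference of 1.33 was not called (adjusted p = 0.127). LIF, of the IL6 family, had 0.70 (adjusted p = 1) although its groups did not overlap.

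EDN1, the precursor of the vasoconstrictor endothelin-1, was the 1 of 28 measured growth and vascular factors that rose. Its values were 1626, 1534, 1859 and 1819 with GSK and 3662, 4256, 5627 and 5351 with both drugs. The replicates lay close together and the EDN1 groups far apart, and the rise of 1.44 ± 0.18 (adjusted p = 1.05e-06) was 1.39 without replicate 3. VEGFA, the main angiogenic growth factor, had 0.58 (adjusted p = 0.627). The median of the list was 0.17.

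PRDM1, a transcriptional repressor also known as BLIMP1, combined a great rise with tight replicates. It read 167.8, 115.1, 108.5 and 116.4 with GSK and 766.4, 606.3, 600.7 and 848.5 with both drugs, so every value with both drugs was at least 3 times any with GSK. The rise was 2.34 ± 0.28 (adjusted p = 2.95e-07), and 2.35 without replicate 3. Of its other probe sets, one as bright with GSK gave 0.16 and a dimmer one 0.47 (adjusted p = 0.0334 over all probe sets). Along with PRDM1, KLF6, BHLHE40 and MYC rose among 31 measured early transcription factors, whose median was 0.45. KLF6, a Kruppel-like factor, rose by 0.64 ± 0.11 (adjusted p = 0.00209), and 3 of its 4 other probe sets gave 0.65 to 0.75. BHLHE40, a repressor that also feeds into the circadian clock, rose by 1.17 ± 0.25 (adjusted p = 0.0271), with overlapping groups: 965.2 to 2737 with GSK and 2440 to 5607 with both drugs. MYC, a driver of growth and ribosome production, rose by 0.69 ± 0.14 (adjusted p = 0.0223), from 2611 to 4783 with GSK to 4624 to 7058 with both drugs, and replicate 3 was highest in each group. The calls of KLF6, BHLHE40 and MYC were kept without replicate 3 and lost without replicate 1 (adjusted p = 0.0737, 0.617 and 0.334), 2 (0.132, 0.212 and 0.47) or 4 (0.0657, 0.627 and 0.627). Further factors of this list had differences that were not called, among them KLF4 (1.31, 95% interval -0.23 to 2.85), MAFF (0.77) and TBX3 (0.53, adjusted p = 0.188).

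Other regulators of transcription rose outside that list. ZNF331, a zinc-finger protein, read 1245, 841.6, 1065 and 838.6 with GSK and 3858, 2046, 3588 and 1832 with both drugs. Replicates 1 and 3 were again the high pair, the groups were separate, and the rise was 1.43 ± 0.26 (adjusted p = 0.00213), lost without replicate 2 (0.164). TGIF1, a repressor of TGF-beta target genes, rose by 1.01 ± 0.17 (adjusted p = 0.0012), and CSRNP1, an early-response nuclear protein, by 0.71 ± 0.13 (adjusted p = 0.00345). TGIF1 was not called without replicate 1 (0.0582) or 2 (0.052), nor CSRNP1 without replicate 2 (0.259). TFAP2A, an epithelial transcription factor, rose by 0.45 ± 0.10 (adjusted p = 0.0349) and was not called with any 1 replicate number left out (without replicate 3, 0.39 and adjusted p = 0.534). KLF1, an erythroid factor, was dim, at 47.3 to 65.2 with GSK and 73.47 to 80.67 with both drugs, and its rise of 0.41 ± 0.094 had an adjusted p of 0.048. That call was lost in 15 of the 23 alternatives, among them a pseudocount of 4 and leaving out replicate 1, 2 or 4.

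The FOS, JUN and EGR families, the best-known immediate early genes, had no called member among 16 measured, and their median was 0.020. The replicate block, not used for the main counts, gave 2 of them higher and 1 (EGR1) lower. FOS had 0.85 (95% interval -0.21 to 1.92) and JUNB 0.74 (0.014 to 1.47), both with an adjusted p of 1. EGR1 went the other way: it read 4754, 5605, 5611 and 5691 with GSK and 2414, 3140, 4091 and 2925 with both drugs. All 4 EGR1 values with both drugs were lower than any with GSK, and the difference of -0.80 ± 0.21 was not called (adjusted p = 0.165). The dimmest of the 3 EGR1 probe sets, with means of 856.3 and 400.3, fell by 1.07 (adjusted p = 3.32e-04 over all probe sets). The second brightest gave -0.68 (limma, adjusted p = 0.382 over all probe sets). With the mean of a gene's probe sets EGR1 was called lower.

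Feedback regulators of kinase signalling rose in part. DUSP1 and SPRY2 were the 2 of 21 measured ERK feedback genes that rose, with a list median of 0.11. SPRY2, an inhibitor of receptor tyrosine kinase signalling, rose by 0.97 ± 0.21 (adjusted p = 0.0313), from 1166 to 2110 with GSK to 2228 to 4509 with both drugs, and its call was kept without replicate 3 and lost without replicate 1 (0.408), 2 (0.422) or 4 (0.841). The phosphatase genes DUSP4 (0.54, adjusted p = 0.165) and DUSP5 (0.77, adjusted p = 1) were not called. MAP3K8, a kinase upstream of ERK also called TPL2, rose by 0.94 ± 0.21 (adjusted p = 0.0418), and was called with none of the 4 replicate numbers left out (adjusted p = 0.123 to 0.961).

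Among 20 measured signalling regulators RGS2, SGK1 and TRIB1 rose, while the median was 0.049. SGK1, a kinase that promotes sodium channel activity at the cell surface, read 1741, 1882, 1676 and 2140 with GSK and 8170, 6929, 6211 and 7092 with both drugs. Replicate 3 was lowest in both groups, the groups were far apart, and the rise was 1.92 ± 0.23 (adjusted p = 2.18e-07). TRIB1, a pseudokinase that directs proteins to degradation, read 543.8, 446.2, 534.5 and 483.8 with GSK and 1736, 1479, 2212 and 1772 with both drugs. It had the smallest adjusted p of all genes, 8.31e-09, for a rise of 1.80 ± 0.19. Of the 3 TRIB1 probe sets, 1 dimmer one gave 1.66, and the remaining one is not given here. Over the 23 alternatives, which include the mean of a gene's probe sets, the TRIB1 rise was 1.12 to 1.887. The other RGS, SGK and tribbles genes measured lay between -0.14 and 0.24. SGK1, RGS2 and DUSP1 were also the 3 of 20 measured glucocorticoid-inducible genes that rose, in a list with a median of 0.25. CRISPLD2, another gene of that list, had -0.0069.

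Control of mRNA decay and of NF-kB was the remaining group with several calls. Of 13 measured genes ZFP36L1, TOB1 and NFKBIZ rose, and the median was 0.18. ZFP36L1, which binds AU-rich elements and speeds mRNA decay, read 1612, 1428, 1418 and 1315 with GSK and 1828, 2227, 3524 and 3075 with both drugs, a rise of 0.83 ± 0.18 (adjusted p = 0.0271) and of 0.68 without replicate 3. TOB1, which recruits the deadenylation machinery, rose by 0.69 ± 0.15 (adjusted p = 0.0271), and NFKBIZ, an atypical NF-kB inhibitor that can also activate targets such as IL6, by 0.69 ± 0.15 (adjusted p = 0.03). The related ZFP36L2 had 0.29 (adjusted p = 0.427). These 3 rises were separate between groups. Each was called without replicate 3 (adjusted p = 0.025, 0.0417 and 0.0366 in the order named) and lost without replicate 1 (0.0551, 0.123 and 0.232), 2 (0.303, 0.259 and 0.155) or 4 (1, 0.627 and 1). With the mean of a gene's probe sets, ZFP36L1 (4 probe sets) and NFKBIZ (2) were not called.

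The remaining rises were ITPRIP, an interactor of the inositol trisphosphate receptor (1.02 ± 0.22, adjusted p = 0.0271), TENT5A, a poly(A) polymerase (0.57 ± 0.13, 0.035), RND3 (0.49 ± 0.11, 0.0418), and MEFV, the gene of the inflammasome protein pyrin (0.56 ± 0.12, 0.0292). None of these 4 was called without replicate 3, where the adjusted p was 0.247 for ITPRIP, 0.131 for TENT5A, 0.171 for RND3 and 0.171 for MEFV, nor without replicate 2 or 4; without replicate 1 all but TENT5A were. SERTAD3, a cell cycle regulator, read 803.4, 727.8, 695.7 and 725.8 with GSK and 554, 587.9, 486.8 and 527.1 with both drugs. Its groups were clearly apart and it fell by 0.44 ± 0.093 (adjusted p = 0.0223), but it was called with none of the replicate numbers left out (adjusted p = 0.0612 to 0.39). MEFV, RND3, TFAP2A and KLF1 are named after their values were seen. No mitotic gene (20 measured, median -0.059) and no hypoxia-inducible or glycolytic gene (15 measured, median -0.039) was called. Beside the rises, replicates 1 and 3 lay above replicates 2 and 4 in both groups for 14 of the 28 called genes, NR4A3, IL6, CXCL2 and SIK1 among them, against 10.9% of all genes; its part in the results was not tested.

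The effect of indacaterol without the inhibitor was then set beside these values, using 8 other arrays, 4 with indacaterol alone and 4 with vehicle. On that background 42 genes (0.212%) were called, 37 higher (0.187%) and 5 lower (0.0253%), with 45 calls without replicate 3, 18 without replicate 1 and 24 without replicate 2. With the replicate number as a block, since same-numbered arrays deviated together in that comparison, there were 206 (1.04%). The 2 lists shared 25 genes, all in the same direction, which is 89.3% of the list on GSK and 59.5% of the list on vehicle. NFKBIZ (0.52, adjusted p = 0.169), KLF1 (0.39, adjusted p = 0.0521) and MEFV (-0.09) were called on GSK and not on vehicle. With the block on vehicle, set against the GSK list after the results were seen, NFKBIZ (adjusted p = 0.0291) and KLF1 (0.00319) were called there too, so that MEFV was the 1 gene of the 28 left (0.859). This sets a blocked list against an unblocked one. The only MEFV probe set, like that of CXCL2, is of a kind that can share probes with related sequences. On GSK the MEFV call was lost in 12 of the 23 alternatives, the block without replicate 3 among them. The mean MEFV signal was 107.9 with GSK and 166.7 with both drugs, and 140.9 with vehicle and 131.1 with indacaterol, and its effects differed by 0.66 (95% interval 0.31 to 1.00, adjusted p = 1). Across all genes the 2 sets of differences had a Pearson r of 0.409 and a Spearman correlation of 0.213, and across the 28 called genes, which are not independent replicates and were chosen on 1 of the 2 measures, r was 0.971.

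Of the 27 rises 21 were smaller on GSK than on vehicle and 6 greater, with a median difference of -0.18. The gap was greatest for NR4A3, whose rise of 2.62 on GSK stood against 3.89 on vehicle, a difference of -1.27 (95% interval -2.91 to 0.38, adjusted p = 1). The mean NR4A3 signal was 45.31 with vehicle and 130.2 with GSK, and it was 1022 with indacaterol and 893.2 with both drugs. IL6 showed the same order, with means of 337.6 (GSK), 1823 (both drugs), 161.2 (vehicle) and 1876 (indacaterol), and a difference of the effects of -0.83 (-2.16 to 0.50, adjusted p = 1). Between GSK and vehicle the limma difference was 0.98 for NR4A3 (adjusted p = 0.832) and 0.76 for IL6 (0.866), neither called. That comparison called 1 of 19775 genes, and both drugs against indacaterol called 0. For PRDM1 the difference was -0.22 (-1.02 to 0.58), for SGK1 -0.28 (-0.92 to 0.36) and for TRIB1 -0.33 (-0.86 to 0.19). No gene of 19775 (0%) was called for a difference between the backgrounds by limma, the smallest adjusted p being 0.27, while 546 genes had an unadjusted p under 0.05. The intervals for NR4A3, IL6, PRDM1, SGK1 and TRIB1 include 0 and reach beyond it in both directions, so their effects are not shown to be equal.

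**Figure D4:**
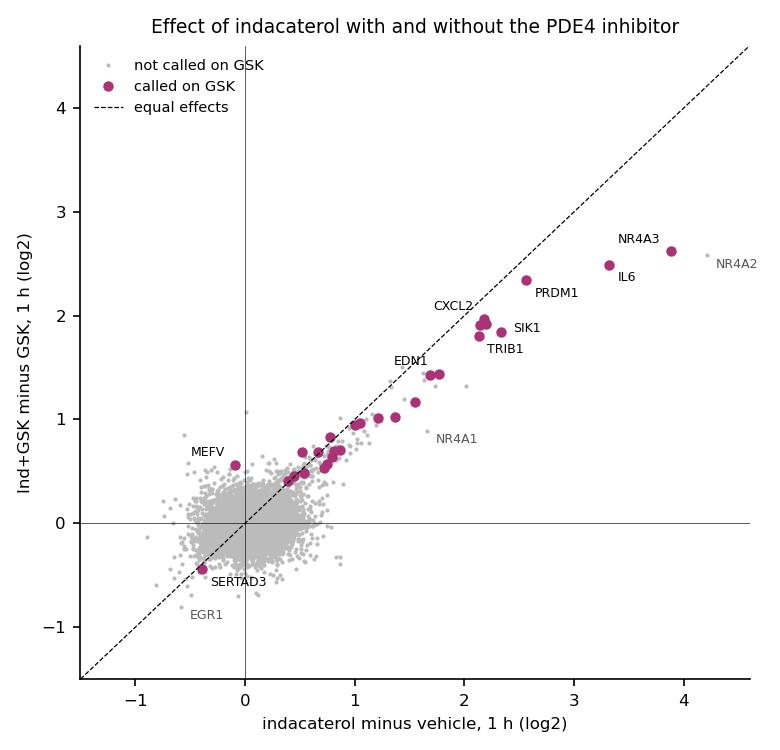
Each gene's difference between both drugs and GSK (vertical) against its difference between indacaterol and vehicle (horizontal), both after 1 h on the log2(signal + 16) scale, with the line of equal effects. Called genes (coloured) lie close to the line, 21 of the 27 rises under it and IL6 and NR4A3 farthest, and MEFV sits off it at -0.09 and 0.56.

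At later times the same comparison was made between other arrays of both drugs and GSK. After 2 h 183 genes (0.925%) were called, 168 higher (0.85%) and 15 lower (0.0759%), and 23 of them were among the 28 of 1 h (82.1% of the 1 h list, 12.6% of the 2 h list), all in the same direction. After 6 h there were 71 calls (0.359%), 55 higher (0.278%) and 16 lower (0.0809%), and ITPRIP was the 1 gene shared, and after 18 h there were none (0%; 402 genes with an unadjusted p under 0.05). The median over the 27 genes that rose at 1 h was 0.97 at 1 h, 0.82 at 2 h, 0.43 at 6 h and 0.096 at 18 h. These genes were chosen for their difference at 1 h, so some fall at the other times is built into these medians.

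The change of effect with time was tested for each gene. Between 2 h and 1 h no gene of the 28 differed by limma (1 of 19775 genes called, 460 with an unadjusted p under 0.05): PRDM1 had 2.30 at 2 h, SGK1 2.19, IL6 2.54 and NR4A3 3.63. The 1 gene called (0.00506%), TBX3, a T-box repressor, had 0.53 at 1 h and 1.64 at 2 h, a difference of 1.10 ± 0.20 (adjusted p = 0.0208). Between 6 h and 1 h 9 genes were called (0.0455%), 7 with greater effects at 6 h (0.0354%) and 2 with smaller (0.0101%). TRIB1 and CSRNP1 had smaller effects at 6 h, by -1.37 ± 0.26 (adjusted p = 0.0147) and -0.87 ± 0.18 (adjusted p = 0.0417). The greatest gains were those of CSGALNACT1, an enzyme of chondroitin sulfate synthesis, with 0.08 at 1 h and 2.84 at 6 h, CRISPLD2, a secreted protein, with -0.0069 and 2.65, and GALNT15, a mucin-type glycosyltransferase, with -0.07 and 1.72. PDE7B, a cAMP-specific phosphodiesterase outside the PDE4 family, had -0.07 at 1 h, 0.05 at 2 h and 1.62 at 6 h. Between 18 h and 1 h, 4 genes were called (0.0202%), all with smaller effects at 18 h: PRDM1 (-2.02 ± 0.40, adjusted p = 0.0266), SGK1 (-1.84 ± 0.32, adjusted p = 0.00487), TRIB1 (-1.77 ± 0.26, adjusted p = 2.96e-04) and EDN1 (-1.43 ± 0.26, adjusted p = 0.00689). These tests share the 1 h arrays. Their counts moved with single replicate numbers: the 6 h count was 3 without replicate 1, 3 without replicate 2, 18 without replicate 3 and 1 without replicate 4, and the 18 h count was 0, 1, 8 and 0. The 2 h count was 1, 0, 4 and 0 in that order.

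**Figure D5:**
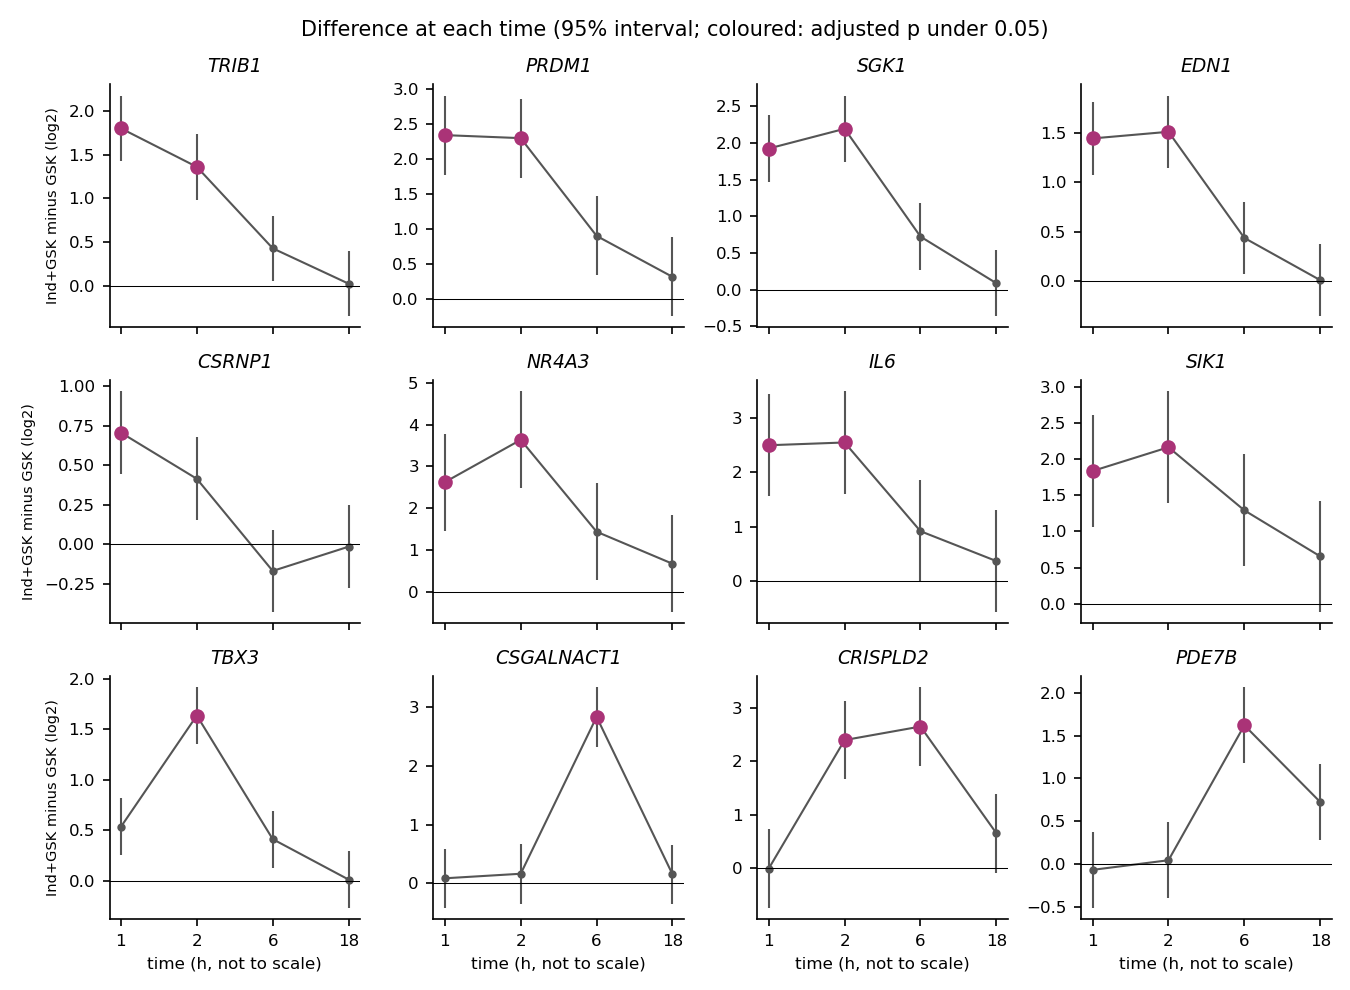
Difference between both drugs and GSK at 1, 2, 6 and 18 h (equally spaced) for 12 genes, with 95% intervals from 4 arrays per group; coloured points had an adjusted p under 0.05. TRIB1, PRDM1, SGK1 and EDN1 are high at 1 and 2 h and near 0 at 18 h, while CSGALNACT1 and PDE7B are near 0 at 1 and 2 h and high at 6 h.

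Several genes of cAMP signalling that were not called at 1 h were called on the later arrays. CREM had 0.04 at 1 h and 0.52 at 2 h (adjusted p = 0.00557), SIK2 -0.00049 and 0.99 (adjusted p = 0.00105), LINC00473 1.38 and 2.68 (adjusted p = 3.20e-07), and PDE4D 0.77 and 1.84 (adjusted p = 0.0186). EGR1 had -0.80 at 1 h, -1.58 at 2 h (adjusted p = 1.16e-06) and -1.06 at 6 h (adjusted p = 0.00277). For none of these 5 was the difference between 2 h and 1 h called.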

How the data were processed

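The values are probe-set intensities from Affymetrix arrays as deposited by the authors, linear and 1 per probe set. Per the submitters' processing notes the tools were PLIER and Transcriptome Analysis Console (version 4); background correction and scaling are not given in the sources used here. Among the 8 arrays of the comparison, no 2 had most of their values in common.

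The platform annotation gave 1 gene symbol for 41091 of 54675 probe sets, several for 1801 and none for 11721, and 62 more were controls. The 19775 genes were each represented by their brightest probe set across the series (10523 had a choice of more than 1), as log2(value + 16), without removing dim genes.

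All 64 arrays entered 1 limma fit (3.58.1, R 4.3.3) with a mean per group and 48 residual degrees of freedom. Contrasts were tested with eBayes (two-sided), and p-values were adjusted over all genes by the Benjamini-Hochberg method, with a call at 0.05. The procedure was tested on simulated data. Other pseudocounts, scalings, filters, probe-set rules, variance models, a replicate block and left-out arrays were tried as alternatives. The numbers pair the arrays where same-numbered deviations correlate above 0.1 for all 4 numbers; this held for indacaterol against vehicle (0.602, 0.554, 0.89 and 0.711) and not for indacaterol on GSK, and the labels do not say what a number marks. Genes were named if they were among the 20 highest or 10 lowest called differences with separate groups, among the 3 most changed of each sign between backgrounds or times, or members of the 21 lists. The comparison and the lists were chosen with earlier results of these data known, and list counts carry no set test. The number of arrays limits the precision.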

Additional observations from a re-analysis of the deposited data

Results flagged for a closer look

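In 7 of 128 groups of 4 arrays screened (5.47%), 1 array lay far from the other 3, where chance gives about 1 in 20. The gap as a share of the group's range was 0.841 for MYC with both drugs (replicate 3 highest), 0.842 for PRDM1 with GSK (replicate 1 highest), 0.915 for EGR1 with GSK (replicate 1 lowest) and 0.907 for CCL20 with GSK (replicate 3 highest). It was 0.844 for VEGFA with both drugs (replicate 3 highest), 0.883 for CSGALNACT1 with GSK (replicate 3 lowest) and 0.954 for EPHA5 with GSK (replicate 4 highest).

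The effect of indacaterol on GSK differed between times for 13 genes, by limma's test of the difference. Against 1 h, the effect at 2 h was greater for TBX3 by 1.10. At 6 h it was greater for CSGALNACT1 by 2.76, CRISPLD2 by 2.65, GALNT15 by 1.79, the amino acid transporter SLC7A2 by 1.70, PDE7B by 1.68, the potassium channel subunit KCNG1 by 1.03 and the ephrin receptor EPHA5 by 1.01. It was smaller at 6 h for TRIB1 (-1.37) and CSRNP1 (-0.874). At 18 h it was smaller for PRDM1 (-2.02), SGK1 (-1.84), TRIB1 (-1.77) and EDN1 (-1.43). KCNG1 and EPHA5 are named after their values were seen.

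Among 13522 probe sets with no single gene symbol, 1 was called at 1 h (0.0074%). It rose by 0.90 ± 0.17 (limma, adjusted p = 0.00698 over all probe sets), from a mean signal of 173.1 with GSK to 368.4 with both drugs, and is not named here.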

How the results depend on the processing

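No called gene changed direction under any of 23 alternatives, over 644 pairs of a gene and a setting, and 204 of those pairs lost the call. The called genes had 32 other probe sets, of which 30 had the same sign and 2 the opposite sign, with 0 of these 2 called. The number of genes called at 1 h was 23 to 35 (main 28) under other pseudocounts, scalings, dim-gene filters, probe-set rules and variance models. The number lower was 3 with quantile normalization (35 called) and 2 with the mean of a gene's probe sets, which also gave 0 calls between 2 h and 1 h. With only the arrays of the groups compared there were 5 calls (5 higher, 0 lower), 11 for indacaterol on vehicle, and 0, 1 and 0 for 2, 6 and 18 h against 1 h; fewer arrays then estimate the spread. Leaving out 1 replicate number or 1 array at a time gave 5 to 25 called, 5 to 25 higher and 0 to 2 lower. It gave 18 to 50 calls for indacaterol on vehicle, 0 to 4 for 2 h, 1 to 18 for 6 h and 0 to 8 for 18 h against 1 h.

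For indacaterol on GSK the replicate numbers were not taken to pair the arrays, since the deviations of same-numbered arrays correlated at -0.16, 0.536, 0.717 and 0.366 for numbers 1 to 4, and 1 of the 4 correlated best with its own number. In the vehicle comparison all 4 correlations were above the threshold of 0.1, and all 4 were best with their own number. With the replicate block, 95 genes were called (82 higher, 13 lower, all 28 retained), 206 for indacaterol on vehicle, 1 for the difference between backgrounds, and 56, 101 and 26 for 2, 6 and 18 h against 1 h. With the block and replicate 3 left out, an alternative chosen with the earlier results known, these were 82 (74 and 8, 27 of 28 retained), 114, 0, 57, 73 and 30. The block alone gave 11 CREB targets higher and 1 lower, 13 early transcription factors higher, and 2 FOS, JUN and EGR factors higher and 1 (EGR1) lower. The cause of these shifts was not tested. With 4 arrays per group, dim genes such as KLF1 and CCL20 are limited by signal near background.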
